A study of Danio rerio with 6 samples.

Results

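GABA, glycine and acetylcholine are transmitters of the retina, and the genes for making, sensing and removing them were compared between thrb -/- and wild-type zebrafish retina. The members were the rows of the authors' deposited table whose gene symbol names a GABA-A or GABA-B receptor subunit, a GABARAP protein, a glycine receptor subunit, gephyrin, a nicotinic or muscarinic acetylcholine receptor, or an enzyme of GABA or acetylcholine turnover. They numbered 31 of 9211 rows, and 29 are described: 12 for GABA, 6 for glycine, 2 for the gephyrin scaffold that serves both, and 9 for acetylcholine. RefSeq (GRCz12tu) holds 78 zebrafish symbols of this pattern, and the remaining ones are not analysed here. In every listed row the larger group mean was at least 50.0 normalized counts. Genes with lower counts in both genotypes are therefore absent, and absence from the list is no result about a gene.

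The mutant group was 3 samples homozygous for the stl628 allele of thrb, the thyroid hormone receptor beta gene, and the other group was 3 wild-type samples from the same clutches. All fish were 6 months old and of the AB* background, and each sample pooled 2 retinas of a male with 2 of a female. The allele is carried in every cell from fertilisation, and only adults were sampled, so a need for the receptor in the adult retina cannot be told apart from an effect during development. In whole retina, fewer cells of a type and less RNA per cell cannot be told apart either.

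Most inhibition in the retina is carried by amacrine and horizontal cells. Amacrine cells release GABA or glycine onto bipolar, ganglion and other amacrine cells, and starburst amacrine cells release acetylcholine as well as GABA. GABA-A and glycine receptors are chloride channels built from several subunits, nicotinic receptors are cation channels of the same family, and GABA-B and muscarinic receptors signal through G proteins.

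The deposited values are mean normalized read counts per genotype (counts divided by a size factor) and the log2 fold change of mutant over wild-type with its standard error (SE), from a fit by the authors with n = 3 samples a group. The values of single samples and the read depth of each library are not given in that table. A gene is said to have risen or fallen where the deposited fold change divided by its SE passed a two-sided Wald test at an adjusted p under 0.05 (Benjamini-Hochberg over the 9211 genes). The mutated gene followed its label: thrb had 413 normalized counts in mutant and 3301 in wild-type retina (log2 fold change -3.01, SE 0.13, authors' deposited table). Photoreceptor markers were abundant, with summed counts of 255572 in mutant and 277528 in wild-type retina over 6 listed genes. Among those 6, 3 lay above 0 and 3 below by point estimate, and 0 passed. Their log2 fold changes ran from -0.76 (arr3a, SE 0.30) to 0.41 (arr3b, SE 0.35) in the authors' deposited table. At an unadjusted p under 0.05 (Wald test) 2 were lower and 1 higher, against 4.54% and 3.76% of all listed genes. Only 1 of 11 muscle genes was listed (tpma, 89.0 in mutant and 110.6 in wild-type retina). Of 5 melanin genes looked for 3 were listed, and all 3 fell, where 1.21% of all listed genes did. Their summed counts were 795 in mutant and 1531 in wild-type retina. None passed with the t distribution described below (adjusted p = 0.75 for dct and pmela, 0.999 for tyrp1b, Wald test). In that setting 1 of the 9211 genes passed. The part of pigmented tissue in the values below was not tested.

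Of the 29 transmitter genes 1 fell, 0 rose and 28 did not pass, where 2.08% of all listed genes passed (1.21% lower and 0.879% higher). The gene that fell was gad1b, which encodes the GABA-synthesising enzyme GAD67. At an unadjusted p under 0.05 (Wald test) 5 members passed, where 8.29% of all listed genes did: 2 were lower and 3 higher, against 4.54% lower and 3.76% higher of all listed genes. By point estimate 22 of the 29 were above 0, against 50.1% of all listed genes, and their median log2 fold change was 0.11, against 0.00063 over all. The summed counts of the 29 genes, in which gad1b and gad2 weigh most, were 54370 in mutant and 55197 in wild-type retina. These sums carry no error. For all 29 members the 95% interval lay within a 2-fold change in either direction, as for 97.1% of all listed genes. For 21 it lay within 1.5-fold, as for 81.4% of all.

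**Figure D1:**
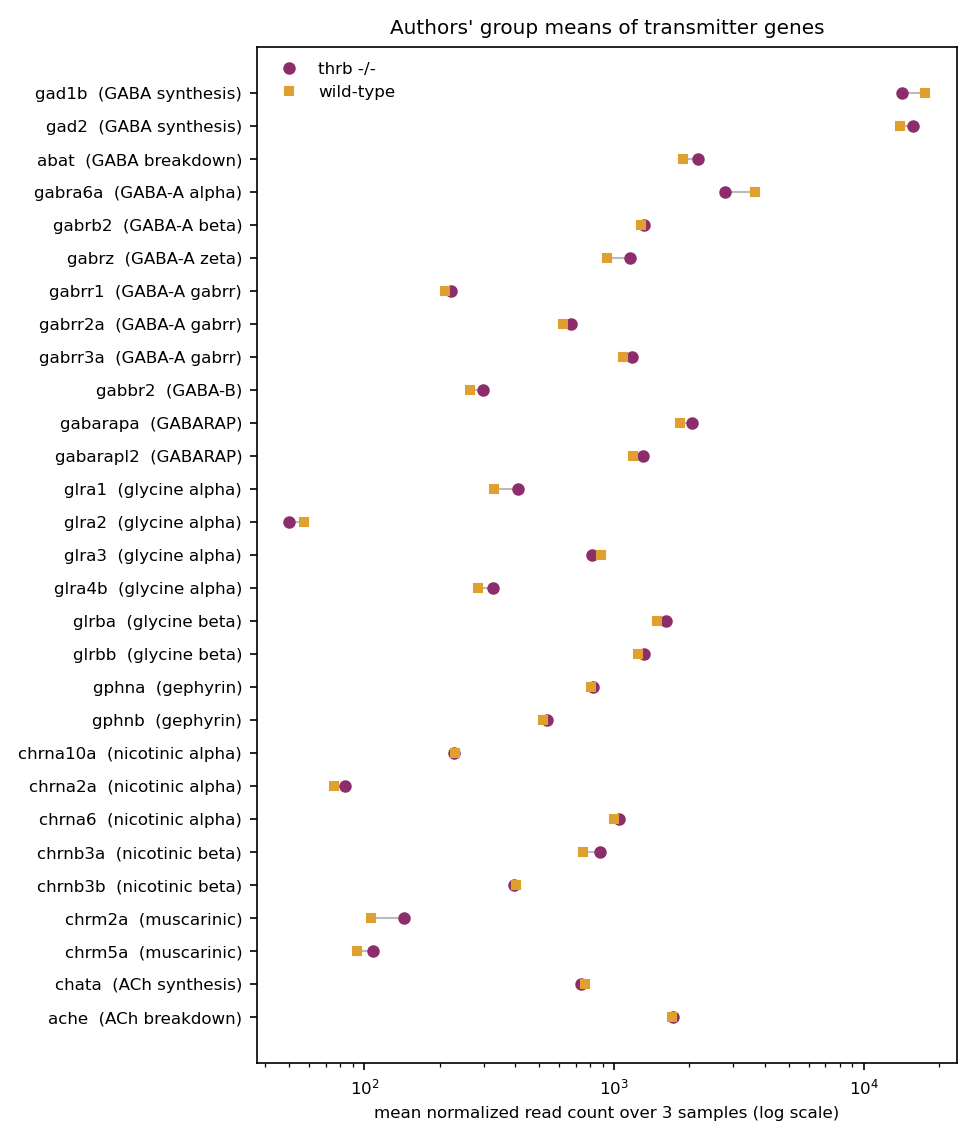
Mean normalized read count of each of the 29 genes (horizontal axis, log scale) in thrb -/- (circles) and wild-type retina (squares), ordered by transmitter and subunit class. The marks of a gene lie close together throughout, and gad1b, gabra6a and chrm2a are among those with the widest gaps; counts are not corrected for gene length, so levels of different genes are not comparable.

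The 2 listed GABA-synthesising enzymes differed in direction by point estimate. gad1b had 14258 normalized counts in mutant and 17590 in wild-type retina in the authors' deposited table. That is 1.23-fold lower in the mutant (log2 fold change -0.30, SE 0.086, 95% interval -0.47 to -0.13, authors' deposited table; Wald adjusted p = 0.025). gad2, which encodes the vesicle-associated isozyme GAD65, had 15732 in mutant and 13888 in wild-type retina in the authors' deposited table, and it did not pass (0.18, SE 0.097, interval -0.011 to 0.37, adjusted p = 0.67). The change of gad1b lay 0.48 below that of gad2 (SE 0.13, interval -0.74 to -0.23, adjusted p = 0.0040 over 20 pairs, Wald test of the difference). The set of pairs was chosen after the values were seen, so this p-value is not independent of that choice. With a t distribution of 4 degrees of freedom the pair did not pass (adjusted p = 0.41, Wald test of the difference). Put as the authors' mean counts, gad1b made up 47.5% of the gad1b and gad2 counts in mutant and 55.9% in wild-type retina. Their sum was 29990 in mutant and 31479 in wild-type retina. As the point estimates had opposite signs, the sum had to differ less than gad1b alone, and it carries no error. Counts are not corrected for gene length, so neither the shares nor the sum compare the levels of the 2 genes.

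The call on gad1b depends on the distribution that its statistic is set against. With a t distribution of 4 degrees of freedom its unadjusted p was 0.024 and its adjusted p 0.999 in the Wald test, and 1 of the 9211 genes passed. That gene was not thrb, the mutated gene, which did not pass in this setting either (adjusted p = 0.10, Wald test). The authors' own deposited p-value asks for a change beyond 2-fold and is 1 for each of the 29 members, of which 0 passed, as against 0.076% of all listed genes.

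abat, the GABA transaminase that degrades the transmitter, had 2171 normalized counts in mutant and 1894 in wild-type retina in the authors' deposited table (a log2 fold change of 0.20, SE 0.14), and it did not pass.

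Other markers of amacrine cells did not share the direction of gad1b by point estimate. Of 11 amacrine markers, all listed, gad1b was the 1 that passed, where 2.08% of all listed genes did. The other 10 lay above 0, against 50.1% of all listed genes, and did not pass. At an unadjusted p under 0.05 (Wald test) 2 of them were higher, against 3.76% of all listed genes. The vesicular GABA and glycine transporter slc32a1, which loads both transmitters into vesicles, had 4593 normalized counts in mutant and 4059 in wild-type retina in the authors' deposited table (0.18, SE 0.091, adjusted p = 0.60 by the Wald test). The amacrine transcription factors tfap2a (0.032, SE 0.083) and pax6a (0.042, SE 0.086), with log2 fold changes from the authors' deposited table, lay closest to 0 with tfap2b (0.037, SE 0.098). Summed over the amacrine markers, counts were 42016 in mutant and 43515 in wild-type retina, a total that includes gad1b. Without gad1b the other 10 summed to 27759 in mutant and 25925 in wild-type retina, so the direction of the sum turns with that gene (a sum taken after the values were seen). Of 6 listed horizontal cell markers 1 fell, lhx1a (-0.63, SE 0.18, Wald adjusted p = 0.037, authors' deposited table), where 1.21% of all listed genes did. It did not pass with the t distribution (adjusted p = 0.999, Wald test) or when adjusted over 13700 genes (adjusted p = 0.055, Wald test). By point estimate 4 of the 6 lay below 0 and 2 above. The 6 summed to 3256 in mutant and 3462 in wild-type retina, of which ompa had 1290 in mutant and 1486 in wild-type retina. Their part in the lower gad1b was not tested.

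Among the GABA-A receptor genes described, gabra6a, encoding an alpha subunit whose mammalian counterpart is best known from cerebellar granule cells, had the largest difference by point estimate. It had 2777 normalized counts in mutant and 3648 in wild-type retina, 1.31-fold lower, and did not pass (log2 fold change -0.39, SE 0.13, 95% interval -0.65 to -0.13, Wald adjusted p = 0.10, authors' deposited table). In RefSeq it directly neighbours the beta subunit gene listed as gabrb2. gabrb2 had 1315 in mutant and 1285 in wild-type retina in the authors' deposited table (0.035, SE 0.11). The change of gabra6a lay 0.43 below that of its neighbour (SE 0.18, interval -0.77 to -0.085), which did not pass (adjusted p = 0.14 over 20 pairs, Wald test of the difference). gabrz, a zeta-type subunit by its symbol, had 1152 in mutant and 940 in wild-type retina, 1.23-fold higher without passing (0.29, SE 0.11, interval 0.078 to 0.51, Wald adjusted p = 0.20, authors' deposited table).

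**Figure D2:**
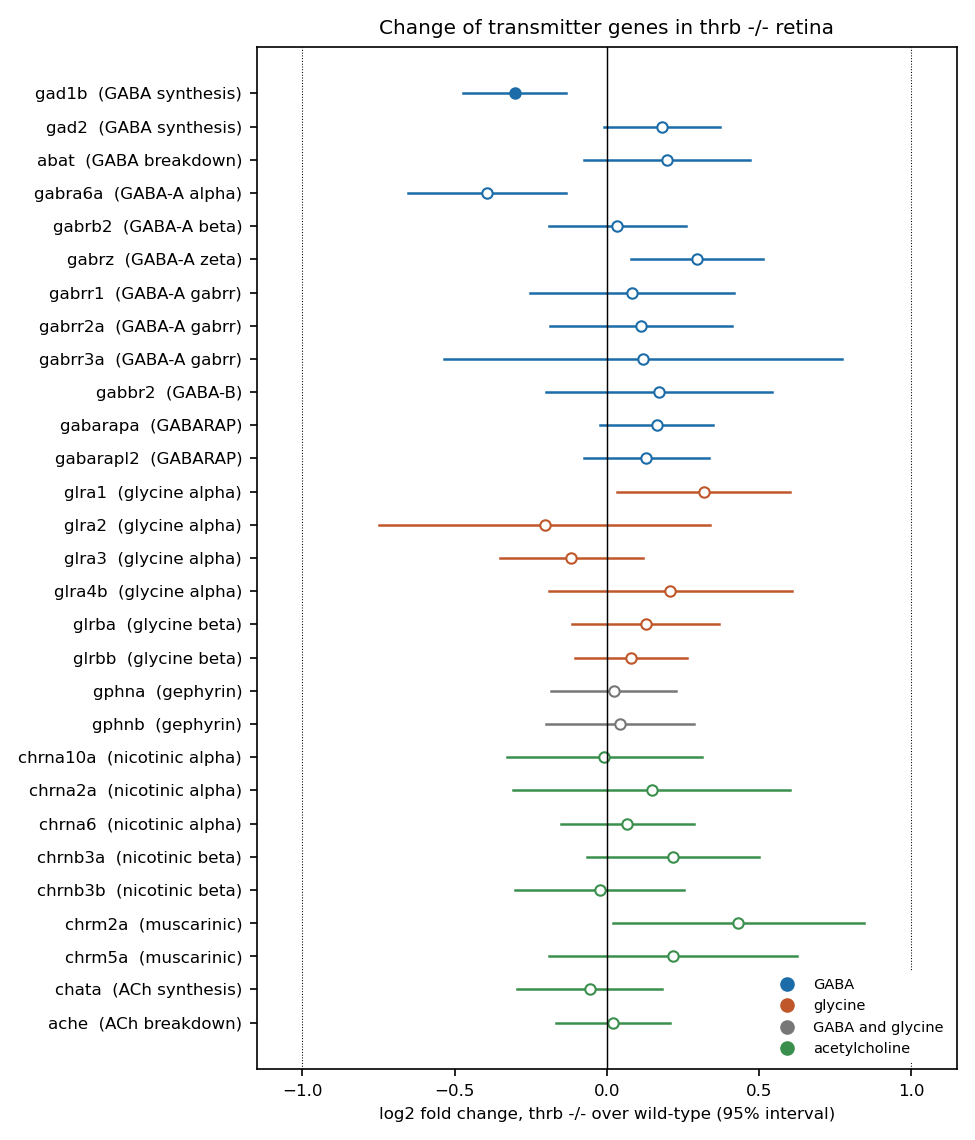
Log2 fold change of thrb -/- over wild-type retina (horizontal axis) for each of the 29 genes with its 95% interval, coloured by transmitter; the filled point passed the Wald test, open points did not, and dotted lines mark a 2-fold change. Only gad1b is filled, at -0.30; gabra6a lies furthest below 0 at -0.39 and chrm2a furthest above at 0.43, and no interval reaches a dotted line.

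The subunits of the gabrr genes form the slowly closing GABA receptors typical of bipolar cell terminals, and all 3 listed ones lay slightly above 0 without passing. gabrr1 had 222 normalized counts in mutant and 210.3 in wild-type retina, and gabrr2a had 673 in mutant and 624 in wild-type retina in the authors' deposited table. On the log2 scale gabrr1 differed by 0.082 (SE 0.17) and gabrr2a by 0.11 (SE 0.15), per the authors' deposited table. gabrr3a had 1174 in mutant and 1082 in wild-type retina, with a log2 fold change of 0.12 and the largest SE of the 29, 0.33, in the authors' deposited table. Its 95% interval, from -0.53 to 0.77, was the widest of the 29. gabbr2, the GABA-B subunit that couples to the G protein, had 298 in mutant and 265 in wild-type retina in the authors' deposited table (0.17, SE 0.19). It is the 1 member on the chromosome that carries thrb, and it did not pass.

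The GABARAP proteins bind GABA-A receptors in mammals and belong to the ATG8 family of autophagy. gabarapa had 2058 normalized counts in mutant and 1836 in wild-type retina, and gabarapl2 had 1306 in mutant and 1192 in wild-type retina, in the authors' deposited table. Their log2 fold changes in the authors' deposited table, 0.16 (SE 0.095) for gabarapa and 0.13 (SE 0.10) for gabarapl2, did not pass. Among 11 listed ATG8 relatives and conjugation enzymes of 18 looked for, 0 passed the Wald test and 0 had an unadjusted p under 0.05. Over all listed genes these shares were 2.08% and 8.29%. The median log2 fold change of the 11 was -0.053. The 2 with the largest statistics were the protease atg4c (-0.28, SE 0.22) and the conjugating enzyme atg3 (-0.15, SE 0.12) in the authors' deposited table.

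None of the 6 glycine receptor genes passed the Wald test, where 2.08% of all listed genes did. In the same test 1 of the 6, glra1, had an unadjusted p under 0.05, where 8.29% of all listed genes did. Alpha subunits bind glycine, and beta subunits tie the receptor to gephyrin. glra1, of the main adult spinal form in mammals, had 411 normalized counts in mutant and 330 in wild-type retina, 1.25-fold higher (log2 fold change 0.32, SE 0.14, interval 0.034 to 0.60, Wald adjusted p = 0.44, authors' deposited table). glra3 had 814 in mutant and 883 in wild-type retina in the authors' deposited table (-0.12, SE 0.12). The changes of glra1 and glra3 differed by 0.44 (SE 0.19, interval 0.067 to 0.80), which did not pass (adjusted p = 0.14 over 20 pairs, Wald test of the difference). glra4b had 328 in mutant and 284 in wild-type retina in the authors' deposited table (0.21, SE 0.20). The gene listed as glra2 had 49.7 in mutant and 57.1 in wild-type retina in the authors' deposited table (-0.20, SE 0.28). Only its wild-type mean reached the 50.0 counts that every listed row has in at least 1 genotype, so its direction is tied to its listing. RefSeq also gives glra2 as an older name of glra4a, so this row may be either gene.

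The beta subunit genes lay above 0 by point estimate without passing, and both gephyrin genes were near level. glrba had 1618 normalized counts in mutant and 1481 in wild-type retina, and glrbb had 1319 in mutant and 1248 in wild-type retina, in the authors' deposited table. Their log2 fold changes were 0.13 (SE 0.12) and 0.080 (SE 0.094), and the gephyrin scaffold genes stood at 0.023 (SE 0.10, gphna) and 0.043 (SE 0.12, gphnb), all per the authors' deposited table. gphna had 821 in mutant and 809 in wild-type retina, and gphnb 536 in mutant and 520.3 in wild-type retina in the authors' deposited table. The change of glrba minus that of glrbb was 0.048 (interval -0.25 to 0.35), and that of gphna minus gphnb -0.020 (interval -0.34 to 0.30). Paralogs named a and b share sequence, and their reads may not all be assigned to the right copy.

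None of the 9 acetylcholine genes passed the Wald test, where 2.08% of all listed genes did. In the same test 1 of the 9, chrm2a, had an unadjusted p under 0.05, where 8.29% of all listed genes did. chata, the choline acetyltransferase that makes the transmitter and marks starburst amacrine cells, had 736 normalized counts in mutant and 767 in wild-type retina in the authors' deposited table. Its log2 fold change was -0.057 (SE 0.12, interval -0.29 to 0.18, authors' deposited table). slc18a3a, the vesicular acetylcholine transporter, had 596 in mutant and 588 in wild-type retina in the authors' deposited table (0.020, SE 0.11). Over 4 listed starburst markers of 8 looked for, counts summed to 3794 in mutant and 3702 in wild-type retina. That sum carries no error, and isl1 weighed most in it, with 1936 in mutant and 1862 in wild-type retina. The fourth marker, sox2, had 526 in mutant and 485 in wild-type retina. By point estimate 3 of the 4 lay above 0, against 50.1% of all listed genes, and chata lay below. ache, the acetylcholinesterase that ends the signal, had 1725 in mutant and 1702 in wild-type retina in the authors' deposited table. Its log2 fold change of 0.019 (SE 0.095, authors' deposited table) had an interval of -0.17 to 0.21, among the narrowest of the 29.

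The 5 listed nicotinic subunits all belong to the neuronal type. chrna6, an alpha subunit that in mammals joins with the beta3 subunit in retinal projections, had 1041 normalized counts in mutant and 996 in wild-type retina in the authors' deposited table (a log2 fold change of 0.067, SE 0.11). chrnb3a, separated from chrna6 by 1 protein-coding gene in RefSeq, had 874 in mutant and 752 in wild-type retina in the authors' deposited table (0.22, SE 0.14). Its paralog chrnb3b had 397 in mutant and 405 in wild-type retina in the authors' deposited table (-0.024, SE 0.14). The change of chrnb3a lay 0.24 above that of chrnb3b, with an interval of -0.15 to 0.64, so no difference was detectable (adjusted p = 0.66 over 20 pairs, Wald test). The alpha subunit chrna2a had 83.5 in mutant and 75.3 in wild-type retina in the authors' deposited table (0.15, SE 0.23). chrna10a, known from hair cells in mammals, had 229 in mutant and 231 in wild-type retina in the authors' deposited table (-0.0089, SE 0.16).

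Of the muscarinic receptors 2 were listed, and both were low in counts and higher in the mutant by point estimate. chrm2a, which signals through inhibitory G proteins, had 144.6 normalized counts in mutant and 106.6 in wild-type retina in the authors' deposited table. Its 1.35-fold difference was the largest point estimate of the 29 and did not pass (log2 fold change 0.43, SE 0.21, interval 0.019 to 0.84, Wald adjusted p = 0.54, authors' deposited table). chrm5a, coupled to phospholipase C, had 108.5 in mutant and 93.6 in wild-type retina in the authors' deposited table (0.22, SE 0.21).

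What could be called depended on the error of each gene. The smallest statistic that passed was 3.28, so the smallest absolute log2 fold change that could pass ran from 0.28 for gad1b to 1.09 for gabrr3a among the 29. For the muscarinic receptors it was 0.69 for chrm2a and 0.68 for chrm5a, so smaller changes in them were not detectable.

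**Figure D3:**
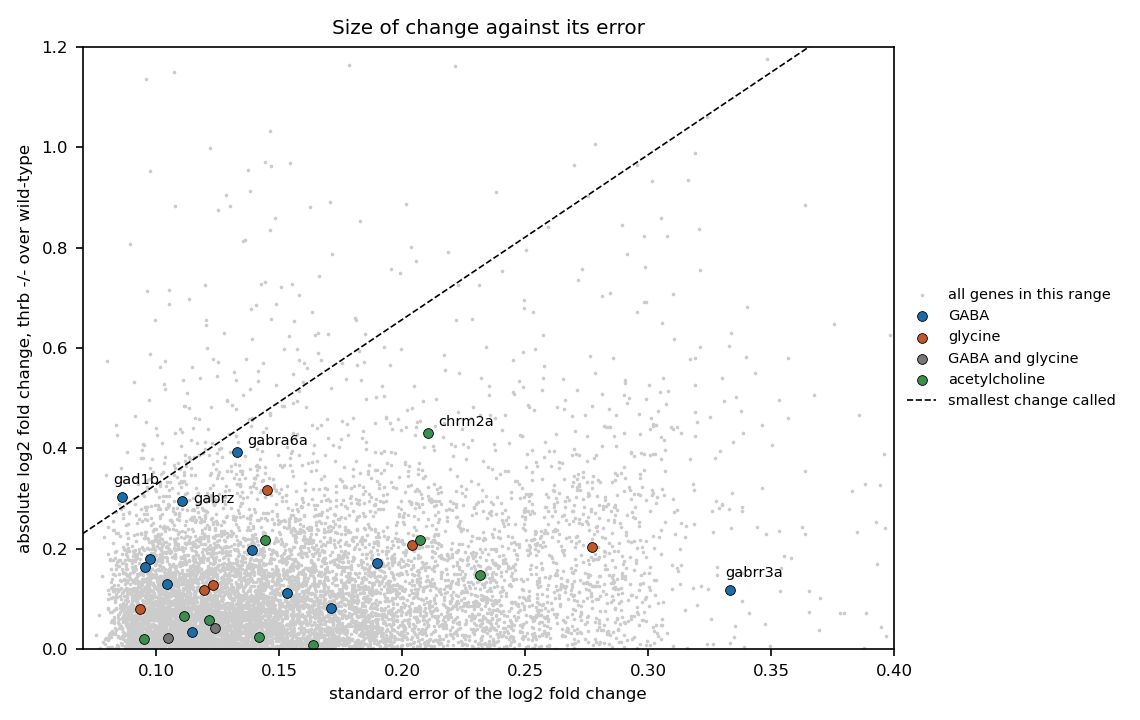
Absolute log2 fold change (vertical axis) against its standard error (horizontal axis) for all listed genes within the plotted range (grey) and the 29 transmitter genes (coloured); the dashed line marks the smallest change called. gad1b lies above the line, the other 28 below it, and gabrr3a stands far to the right with an error of 0.33.

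Within classes, 20 pairs were compared: all pairs of a class and 2 pairs of neighbouring genes. The set of pairs was chosen after the values were seen, so the 1 that passed, gad1b with gad2, was not independent of that choice. Errors of a pair were taken as independent although the same samples gave both. With a t distribution of 4 degrees of freedom that pair did not pass (adjusted p = 0.41, Wald test of the difference). Of the 3 pairs of a and b paralogs, planned separately, 0 passed in the Wald test, and 0 had an unadjusted p under 0.05.

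**Figure D4:**
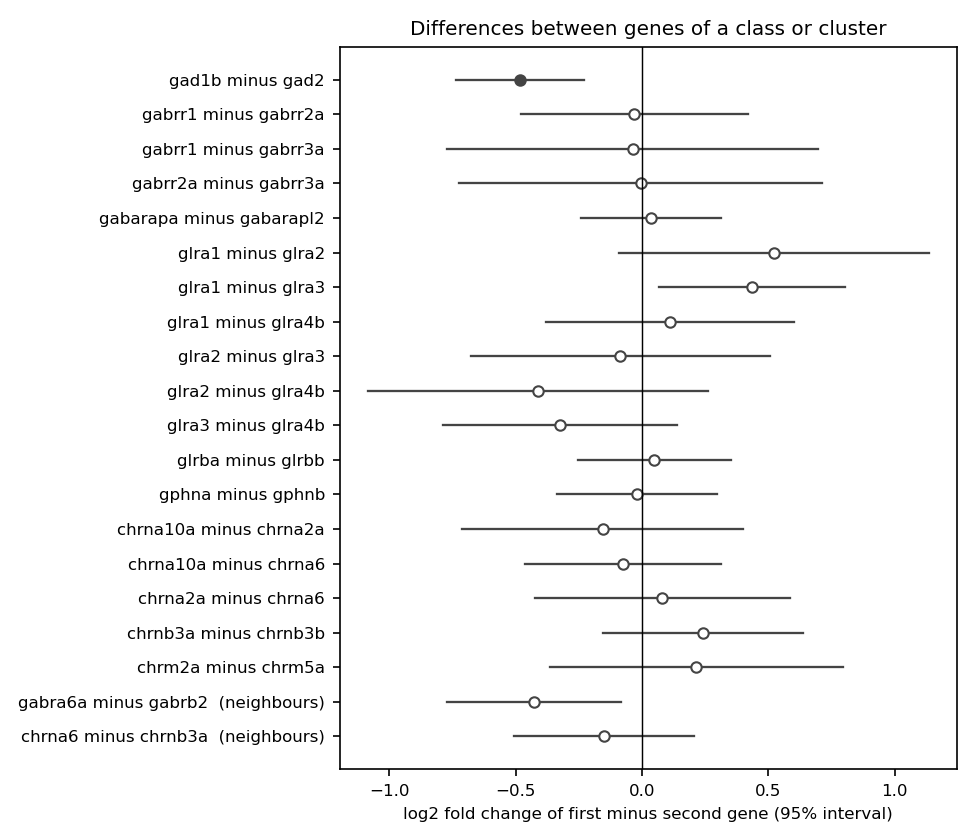
Log2 fold change of the first gene minus that of the second, with 95% intervals, for 18 pairs within a class and 2 pairs of neighbouring genes; the filled point passed the Wald test of the difference. The pair gad1b and gad2 lies at -0.48, while the gabrr, gephyrin and glycine beta pairs lie within 0.05 of 0.

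Among genes that serve these transmitters without carrying the listed names, slc12a5b rose. It encodes KCC2, the neuronal chloride exporter that lets GABA and glycine hyperpolarise a cell, and it had 5909 normalized counts in mutant and 4460 in wild-type retina in the authors' deposited table. It was 1.32-fold higher (log2 fold change 0.41, SE 0.11, interval 0.19 to 0.62, authors' deposited table; Wald adjusted p = 0.015), and it lost its call when the t distribution was used (adjusted p = 0.999, Wald test). Of 9 listed ganglion cell markers 2 rose as well, where 0.879% of all listed genes did. By point estimate 4 of the 9 lay above 0 and 5 below. Those that rose were elavl3 (0.49, SE 0.13, Wald adjusted p = 0.014) and elavl4 (0.39, SE 0.12, Wald adjusted p = 0.048), with log2 fold changes from the authors' deposited table. Both encode RNA-binding proteins of neurons in general. Neither passed when the t distribution was used (adjusted p = 0.999 for both, Wald test), and elavl4 did not pass when adjusted over 13700 genes (adjusted p = 0.072, Wald test). The 9 summed to 16084 in mutant and 14293 in wild-type retina, and the 7 without elavl3 and elavl4 to 8961 in mutant and 9017 in wild-type retina. Their part in the higher slc12a5b was not tested.

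The chloride importer slc12a2 had 2042 in mutant and 2099 in wild-type retina in the authors' deposited table (-0.039, SE 0.12). In all, 65 of 145 such genes, in 9 lists, were listed in the table, of which 1 rose, 0 fell and 64 did not pass. The 1 called stands against 2.08% of all listed genes. At an unadjusted p under 0.05 in the Wald test 7 of the 65 were higher (10.8%, against 3.76% of all listed genes) and 3 lower (4.62%, against 4.54%). The median log2 fold change of the 65 was 0.0067, against 0.00063 over all, and the lists were chosen with results of these data known.

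All 4 listed transporters of GABA and glycine lay above 0, against 50.1% of all listed genes, and 0 of them passed. At an unadjusted p under 0.05 (Wald test) 3 of the 4 were higher, against 3.76% of all listed genes. Of the 4, slc32a1 and slc6a9 were also counted among the amacrine markers above, so the 2 counts share genes. slc6a1b, a GABA uptake transporter of the GAT1 type, had 10023 normalized counts in mutant and 8314 in wild-type retina in the authors' deposited table (a log2 fold change of 0.27, SE 0.086, Wald adjusted p = 0.070). Its paralog slc6a1a had 4216 in mutant and 3567 in wild-type retina in the authors' deposited table (0.24, SE 0.10, Wald adjusted p = 0.36). The glycine transporter slc6a9 had 2411 in mutant and 2158 in wild-type retina in the authors' deposited table (0.16, SE 0.12).

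Of 9 listed genes of GABA and glycine metabolism 0 passed, with dldh, a subunit shared by the glycine cleavage system and 2-oxoacid dehydrogenases (-0.27, SE 0.089), and the glutaminase glsa (-0.15, SE 0.10) having the largest statistics in the authors' deposited table. Among 10 listed GABA-B auxiliary subunits and effectors 0 passed, and gnb5a (-0.25, SE 0.12) and gnb5b (-0.21, SE 0.10), which encode the G protein beta5 subunit, came first in the authors' deposited table. The 9 listed muscarinic effectors were led by the G protein alpha subunit genes gnao1a (0.32, SE 0.11, Wald adjusted p = 0.091) and gna11b (0.25, SE 0.12) in the authors' deposited table, and 0 passed. gnao1a is also a bipolar cell marker, and the 10 listed bipolar markers summed to 35279 in mutant and 31846 in wild-type retina. The part of bipolar cells in these values was not tested.

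The 14 listed genes of inhibitory scaffolds and receptor trafficking had a median log2 fold change of -0.012, and 0 passed. Their largest statistics were those of clptm1l (-0.21, SE 0.12) and dynll1, a dynein light chain that binds gephyrin (0.22, SE 0.17), in the authors' deposited table. Among nicotinic assembly and modulation genes, 4 were listed and 0 passed, with the neurexins nrxn1b (0.18, SE 0.12) and nrxn1a (0.045, SE 0.093) first in the authors' deposited table. The other acetylcholine transport gene listed was the choline transporter-like slc44a5b (0.13, SE 0.12, authors' deposited table).

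**Figure D5:**
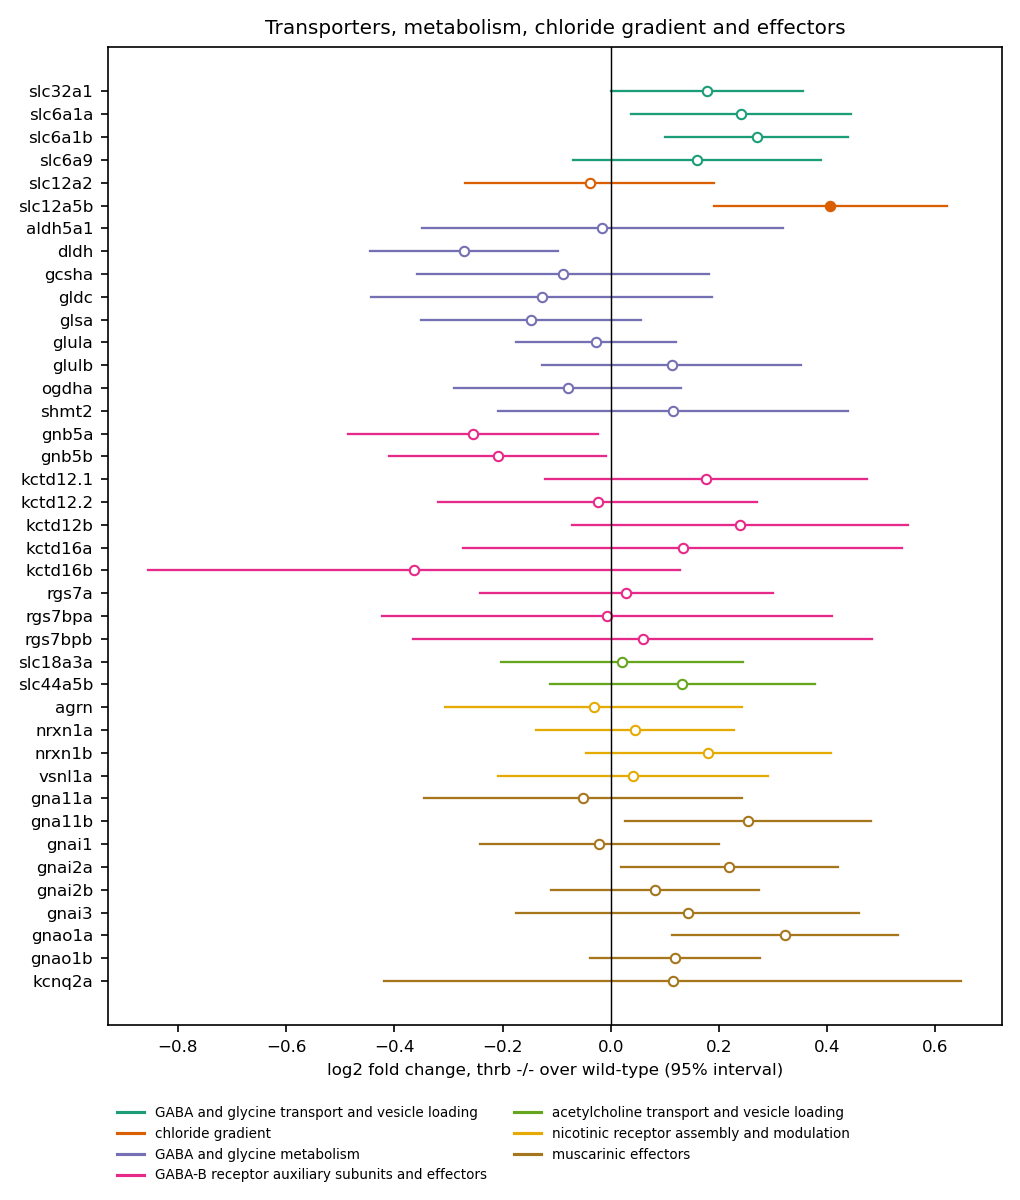
Log2 fold change of thrb -/- over wild-type retina with 95% intervals for 40 listed genes of transport, chloride gradient, metabolism and receptor effectors, coloured by list; the filled point passed the Wald test and open points did not. slc12a5b at 0.41 is the filled point, and the 4 GABA and glycine transporters lie between 0.16 and 0.27.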

How the data were processed

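Poly-A-selected RNA of 6 whole-retina samples was sequenced. Per the submitters' processing notes, the tools were STAR 2.7.2b, cutadapt 1.9.1, DESeq2 1.18.1 (in R 3.4.3) and HTSeq 0.9.1, with the build danRer10; their order, settings and annotation were not given in the sources used here. Library making had no strand-marking step per the labels' protocols, so overlapping antisense genes may share reads.

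The authors deposited 1 table of 9211 genes: per genotype the mean normalized count (a signal: counts divided by size factors), the log2 fold change with its standard error from DESeq2, a statistic (score) and a p-value with its adjusted form. Log2 ratios of the deposited means lie within 0.030 of the deposited fold changes, which gives the direction, mutant over wild-type. The deposited p-value tests for a change beyond 2-fold. Group means sum to 10700117 normalized counts in mutant and 10849262 in wild-type retina; depth per library is unknown. The median deposited standard error is 0.14 on the log2 scale.

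From these the Wald test, its Benjamini-Hochberg adjustment, 95% intervals (normal distribution) and differences between pairs of genes were computed with Python 3.11.15 and scipy 1.17.1. p-values rest only on the spread that the authors' model found between pooled samples. Named with full values were the genes past the test under any setting and, in each class, those with the largest statistic and the highest mean count; remaining members are given by their means. For genes outside the rule, those past the test and the 2 with the largest statistic in each list were named, with further transporters and markers named after their values were seen. Of the rows that met the rule, 2 are not reported here, nor is 1 photoreceptor marker, though all rows entered the adjustment. The members, lists and tests were chosen with earlier results of these data known. Gene names were matched to RefSeq GRCz12tu, 28 by symbol and 1 (gabrb2, there gabrb2a) by synonym. The statements on neighbouring genes and on the chromosome of thrb use the chromosomes and gene order of that assembly. Alternatives tried were a t distribution, adjustment over 13700 genes (the number the deposited adjusted p-values imply), count filters, median centring, rescaling of the statistic, and the authors' own p-value.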

Additional observations from a re-analysis of the deposited data

How the results depend on the processing

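The count past the test among the 29 transmitter genes described was 1, and it was 0 with a t distribution of 4 degrees of freedom and 0 by the authors' deposited adjusted p. It was 1 among genes with a mean count of at least 100 or of at least 200, and 1 when the statistic was divided by its central spread of 0.94. Over all genes the count was 192, and it was 1 with the t distribution and 7 by the authors' deposited adjusted p. gad1b kept its call when adjusted over 13700 genes (adjusted p = 0.038, Wald test) and after centring on the median. The log2 fold change of gad1b, -0.30, lost its call with the t distribution and by the authors' p-value. Of 197 values of single genes with a test under alternatives, the other 195 kept their side of the threshold. That count is no measure of robustness, as 28 of the 29 genes did not pass to begin with. The t distribution, the adjustment over 13700 genes and the authors' p-value could only make passing harder for them. Median centring moved every value by 0.00063, and the value closest to 0 among the 29 was -0.0089 (chrna10a). Centring could therefore not change a direction. In log2 ratios of the group means plus a pseudocount of 1, which have no test, the direction changed for 0 of 29 genes. The 1 pair within a class that differed became 0 with the t distribution and stayed 1 otherwise. Scaling to the summed counts of all rows moved the log2 ratio of every class sum by 0.020. No paired analysis was possible because the table holds group means and no values per sample; for the same reason replicates could not be left out in turn. The lower counts of genes past the test with the t distribution and by the authors' p-value follow from those settings. The first sets the same statistics against a stricter limit, and the second asks for a change beyond 2-fold.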

Other observations

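Outside the naming rule, 2 rows of the authors' deposited table belong to the same families through RefSeq names. zgc:110204, which RefSeq calls gabra4, an alpha subunit of the GABA-A receptor, had 103.5 normalized counts in mutant and 99.2 in wild-type retina (log2 fold change 0.058, SE 0.23). zgc:92606, for which RefSeq lists gabarapl as an older name, had 1610 in mutant and 1749 in wild-type retina (-0.12, SE 0.32, authors' deposited table). Neither passed the Wald test.

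The standard error of gabrr3a, 0.33 in the authors' deposited table, was larger than that of 98.8% of the 1469 genes whose mean count was within 1.5-fold of its own, where the median was 0.106. For comparison, gabrr2a stood above 93.3% and gabrr1 above 63.3% of genes of like count. A large error for the count was not particular to the gabrr genes. Outside that class glra4b stood above 97.9% and gabra6a above 91.4%, while glrbb stood above 8.30%.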
